A study of Homo sapiens with 6 samples.

Results

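The ligand genes with which a tumour cell meets T cells, natural killer (NK) cells and macrophages were examined in Hs578T, a triple-negative breast cancer cell line. The members, fixed by symbol, were CD274, PDCD1LG2, CD276, CD47, NECTIN2, PVR, MICA, MICB, ULBP2 and ULBP3. All 10 were found among the 46427 genes of the count table, and all 10 were among the 17419 genes that passed the filter on low counts. RNA was sequenced from 3 samples of cells with a control shRNA (shCTRL) and 3 samples of cells with CCN3 shRNA #2 (shCCN3). Both lines were made by retroviral transduction of a pSUPER vector and puromycin selection, and both grew in the same serum-containing medium. The shCCN3 arm holds 1 shRNA sequence, and the methods speak of selected clones without giving how many each line holds. The labels number the 3 samples of a group, and the methods speak of independent trials in general without saying what separated these samples. The p-values therefore measure the spread between these samples, which may be technical.

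Tumour cells display these proteins at their surface as brakes or as alarms. CD274 encodes PD-L1 and PDCD1LG2 encodes PD-L2, the ligands of the inhibitory T cell receptor PD-1. CD276 encodes B7-H3, a relative in the B7 family. CD47 binds SIRPα on macrophages and restrains phagocytosis. NECTIN2 and PVR bind both the inhibitory receptor TIGIT and the activating receptor DNAM-1. MICA, MICB and the ULBP proteins are distant relatives of MHC class I that stressed or transformed cells display to NKG2D, an activating receptor of NK cells and of many CD8+ T cells. Interferon-gamma is the best known inducer of PD-L1, and heat shock and DNA damage are known inducers of NKG2D ligands.

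Promoters of CD274, MICA and MICB are printed because these genes had the 3 largest rises among the members, and because interferon and heat shock motifs in them are textbook features. The sequences are from RefSeq on GRCh38.p14, plus strand, and cover bases -250 to -101 before the transcription start in the promoter table. For CD274 this start is the first base of the gene, whereas for MICA and MICB it lies inside the gene interval given further on, which begins upstream of the printed stretch. Other annotated starts were not examined. The capitals in CD274 mark the interferon-stimulated response element (ISRE, searched as TTTC, any 2 bases and TTTC again, with 2 matches that overlap each other) and the gamma-activated site (GAS, TTCNNNGAA). The capitals in MICA and MICB mark the heat shock element (HSE, GAANNTTC or TTCNNGAA).
CD274, chr9:5450292-5450441: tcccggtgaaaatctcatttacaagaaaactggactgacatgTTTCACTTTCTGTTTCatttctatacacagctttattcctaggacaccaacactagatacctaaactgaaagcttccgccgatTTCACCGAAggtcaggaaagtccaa
MICA, chr6:31403345-31403494: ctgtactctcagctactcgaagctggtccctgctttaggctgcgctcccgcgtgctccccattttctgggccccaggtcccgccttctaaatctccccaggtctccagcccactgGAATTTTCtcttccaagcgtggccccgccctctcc
MICB, chr6:31497895-31498044: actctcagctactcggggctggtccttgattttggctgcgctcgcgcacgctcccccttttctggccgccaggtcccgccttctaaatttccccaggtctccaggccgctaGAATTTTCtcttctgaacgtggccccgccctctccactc

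The MICA and MICB stretches were identical at 128 of 146 aligned bases (87.7%), and the HSE was the same 8 letters in both. In whole windows of 250 bases before to 50 bases after the start, searched on both strands, the ISRE was found in 3.57% of all 35116 windows, the GAS in 7.66% and the HSE in 13.5%. Of the 9 members with a window, CD274 alone held the ISRE and the GAS, and MICA and MICB alone held the HSE. The AP-1 motif TGANTCA was found in the windows of ULBP2 and ULBP3, and in 7.71% of all windows. The NF-kB consensus was found for ULBP3 and CD276, and in 11.3% of all windows. It overlapped a GC box in ULBP3. The GC box GGGCGG was found for 8 members and in 45% of all windows. PDCD1LG2 was the member without a window. These matches describe letters, and binding was not measured.

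The libraries held between 56159110 and 68393177 counts, so that 3 counts in a library corresponded to 0.0435 to 0.0540 CPM (counts scaled to library size with TMM factors). This limit covers counting error only. Means are given ± SD over n = 3 libraries per group. CCN3, the target of the shRNA, fell from 101 ± 2.43 to 47.0 ± 0.469 CPM (log2 fold change, log2FC, -1.10, adjusted p = 1.34e-06 from edgeR). The mesenchymal markers VIM, CD44, FN1 and CDH2 were at 7778, 2158, 2362 and 89.0 CPM in shCTRL cells. In shCCN3 cells CD44 was lower (log2FC -0.25) and CDH2 higher (log2FC 0.87), with adjusted p = 0.00429 and 9.06e-05 from edgeR. VIM and FN1 were not called. The epithelial markers CDH1 and EPCAM averaged below 0.1 CPM in both groups. Of the receptors whose absence defines the subtype, ESR1 averaged below 0.1 CPM, PGR was 2.86 CPM and ERBB2 was 77.9 CPM in shCTRL cells. Of 12 markers of immune cells, 8 were at 0 in every library, and the 12 together summed to 1.01 to 1.70 CPM in shCTRL and 0.468 to 0.929 CPM in shCCN3 libraries. Of 8 receptor genes of these ligands, PDCD1 (PD-1) and KLRK1 (NKG2D) were also at 0 in every library, TIGIT and CD226 (DNAM-1) averaged below 1 CPM in both groups, and SIRPA is described with CD47. NCAM1, the 1 marker called of 3 tested (33.4% of all genes were called), was lower in shCCN3 cells and stayed below 1 CPM.

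To determine which ligands differed between CCN3 knockdown and control cells, the 10 genes were read from a fit over all 17419 genes (edgeR's quasi-likelihood test, Benjamini-Hochberg adjustment). MICB, CD274, MICA, PDCD1LG2, NECTIN2 and PVR were higher in shCCN3 cells, ULBP3, CD276 and CD47 were lower, and ULBP2 did not pass. The count was thus 9 of 10 at an adjusted p under 0.05, where 33.4% of all genes tested passed. The members were chosen with earlier results of these data known, so this count is not a test of the set. By direction, 6 members were higher (16.2% of all genes) and 3 were lower (17.3%). The median log2FC of the members was 0.28, beside 0.01 over all genes. Their median size without regard to sign was 0.38, beside 0.24 over all genes. Only MICB and CD274 changed at least 2-fold, both upward. Among all genes 8.1% did so in either direction and 4.17% upward, at an adjusted p under 0.05. In 9 members the 3 libraries of a group did not overlap those of the other, as in 46.3% of all genes. By direction, this held for the 6 higher members (22.7% of all genes) and the 3 lower ones (23.6%). In RNA from whole cultures, a change in the share of cells that express a gene and a change in the amount per cell cannot be told apart.

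**Figure D1:**
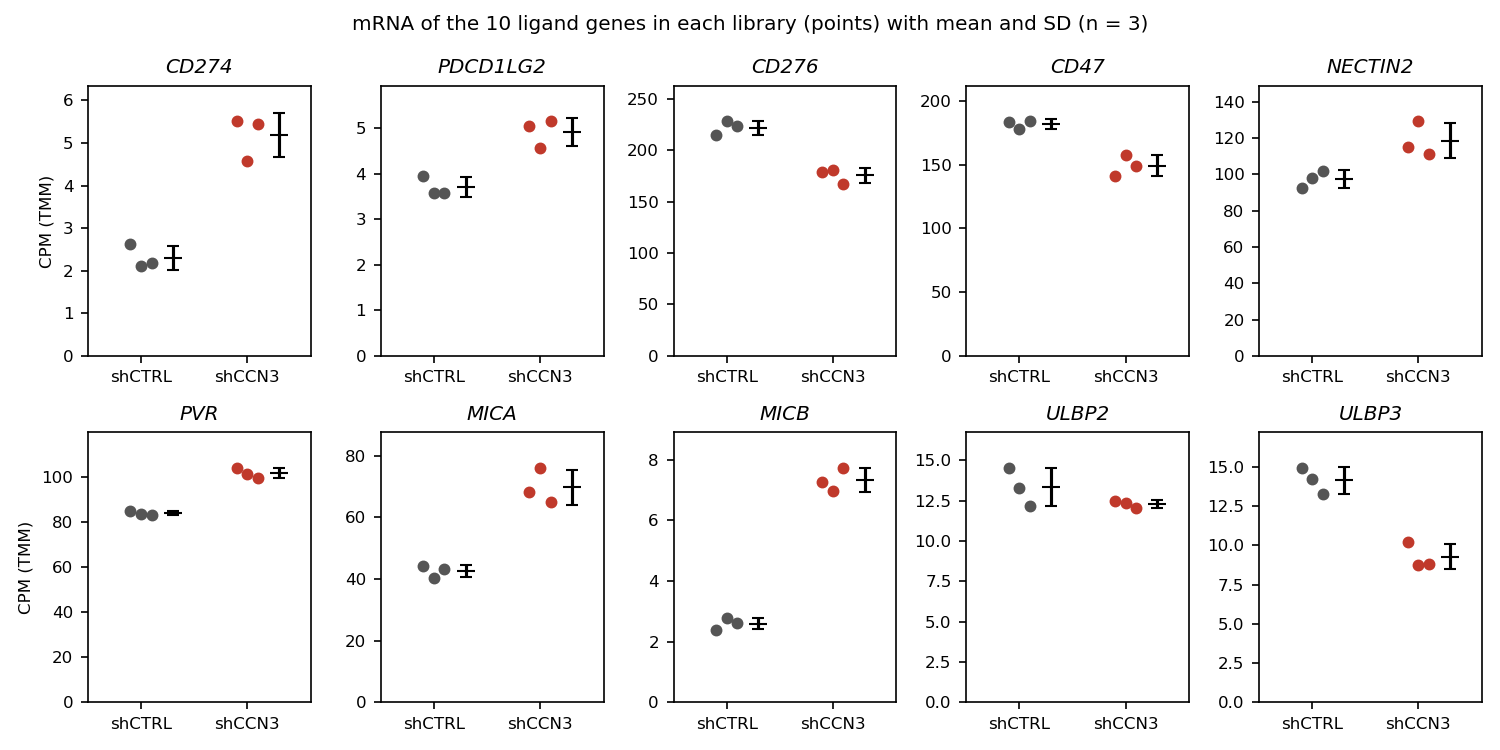
Each panel plots 1 ligand gene, with CPM (TMM-scaled, axis from 0) for the 3 shCTRL libraries in grey and the 3 shCCN3 libraries in red, and the mean with SD as a bar to the right. The groups are apart in every panel but ULBP2, and the widest relative gaps are those of MICB and CD274.

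Among the ligands of PD-1, CD274 mRNA was low in shCTRL cells and more than doubled in shCCN3 cells. CD274 was 2.62, 2.12 and 2.18 CPM in shCTRL replicates 1, 2 and 3, and 5.51, 4.59 and 5.46 CPM in the shCCN3 replicates. The lowest shCCN3 library was therefore well above the highest shCTRL library, and the values rested on 133 to 380 counts. The log2FC of CD274 was 1.17 (SE 0.14, 95% interval 0.85 to 1.49, adjusted p = 0.000218 from edgeR), a 2.25-fold rise. CD274 lies on chromosome 9 from 5450542 to 5470554, where the median of 709 genes was -0.07 on the same scale. Of its 24 nearest tested genes, 11 were higher in shCCN3 cells, and their median log2FC was -0.03. The closest of them, in order of distance, were PLGRKT (0.23), PDCD1LG2 (0.41), RIC1 (0.34), ERMP1 (0.01) and JAK2 (0.52). The part of this stretch in the change of CD274 was not tested.

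PDCD1LG2, the neighbouring gene that encodes PD-L2, differed less. PDCD1LG2 was 3.96, 3.58 and 3.58 CPM in shCTRL and 5.05, 4.57 and 5.16 CPM in shCCN3 libraries. The groups were apart, with a log2FC of 0.41 (SE 0.11, 95% interval 0.15 to 0.67, adjusted p = 0.0213 from edgeR). Its call was the least stable of the members. The adjusted p of PDCD1LG2 was between 0.0639 and 0.0796 without shCTRL replicate 2, shCTRL replicate 3, shCCN3 replicate 1 or shCCN3 replicate 3, each left out alone.

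The count ratio of CD274 to PDCD1LG2 within a library needs no scaling between libraries. It was 0.591 to 0.662 in shCTRL and 1.00 to 1.09 in shCCN3 libraries, without overlap. The mean difference of the log2 ratio was 0.76. In a two-sided exact permutation test p was 0.1, which is as low as 3 against 3 can go, and 0.133 after adjustment over the 4 pairs of members compared.

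CD276 and CD47, the 2 members with the most counts, were both lower in shCCN3 cells. CD276 was 215, 228 and 223 CPM in shCTRL and 178, 181 and 167 CPM in shCCN3 libraries. All shCCN3 libraries were below all shCTRL libraries, and the log2FC of CD276 was -0.34 (SE 0.06, 95% interval -0.47 to -0.21, adjusted p = 0.00189 from edgeR). CD47 was 184, 178 and 184 CPM in shCTRL and 141, 158 and 149 CPM in shCCN3 libraries. These groups were also apart, and CD47 had a log2FC of -0.29 (SE 0.06, 95% interval -0.42 to -0.15, adjusted p = 0.00588 from edgeR).

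CD47 went against most of its neighbours on the chromosome. CD47 lies on chromosome 3 from 108043091 to 108091031. Of its 24 nearest tested genes, 18 were higher in shCCN3 cells, and their median log2FC was 0.32. CD276, on chromosome 15 from 73683944 to 73714514, lay among 24 genes with a median of -0.12. SIRPA, which encodes the CD47 receptor SIRPα and is best known in myeloid cells, was detected in these tumour cells and fell from 77.8 ± 1.61 to 38.6 ± 3.21 CPM. Its log2FC of -1.01 (adjusted p = 9.82e-06 from edgeR) was the 1 change called among 5 tested receptor genes of these ligands. Of all genes tested, 33.4% were called.

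NECTIN2 and PVR, the ligands shared by TIGIT and DNAM-1, rose by nearly the same small amount. NECTIN2 was 92.2, 97.9 and 102 CPM in shCTRL and 115, 129 and 111 CPM in shCCN3 libraries. PVR was 84.9, 83.3 and 83.0 CPM in shCTRL and 104, 101 and 99.3 CPM in shCCN3 libraries. For both genes the groups were apart, and PVR had the tightest replicates of all members in shCTRL cells, with a coefficient of variation of 1.18%.

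NECTIN2 had a log2FC of 0.28 (SE 0.07, 95% interval 0.12 to 0.45, adjusted p = 0.0152 from edgeR), and PVR one of 0.28 (SE 0.05, 95% interval 0.16 to 0.40, adjusted p = 0.00369 from edgeR). Without shCTRL replicate 1 or 2 the adjusted p of NECTIN2 was 0.0662 or 0.0597. The ratio of NECTIN2 to PVR counts was 1.09 to 1.23 in shCTRL and 1.11 to 1.28 in shCCN3 libraries, and these ranges overlapped (log2 difference 0.01, exact permutation test, two-sided p = 1). Both genes lie on chromosome 19, NECTIN2 from 44846297 to 44889223 and PVR from 44643910 to 44666162. The median of the 1126 genes tested there was 0.02.

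**Figure D2:**
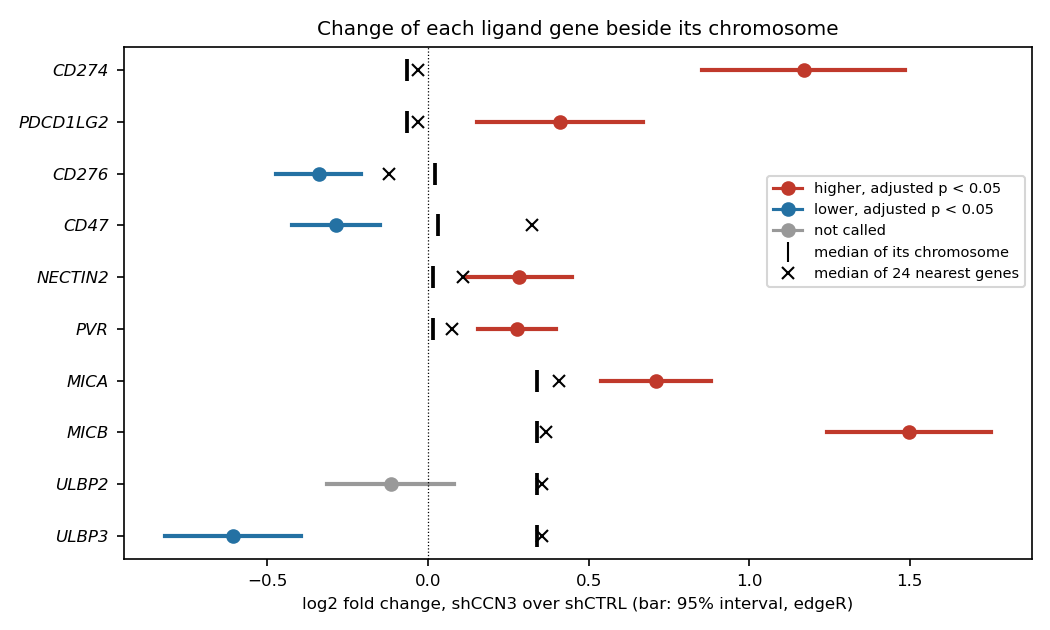
The log2FC (shCCN3 over shCTRL) of each member is drawn as a point with its 95% interval from edgeR, the median of its chromosome as a vertical tick and the median of its 24 nearest tested genes as a cross. CD274 and MICB lie farthest to the right of both marks, and ULBP3 and ULBP2 lie left of theirs although MICA and MICB on the same chromosome lie right.

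Among the NKG2D ligands, the MIC genes rose and the ULBP members did not. MICB was 2.40, 2.79 and 2.61 CPM in shCTRL and 7.28, 6.98 and 7.74 CPM in shCCN3 libraries. No library of one group came near the other, with 165 to 175 counts in shCTRL libraries. MICB had the largest change of the 10 members, a log2FC of 1.50 (SE 0.11, 95% interval 1.24 to 1.75, adjusted p = 1.33e-05 from edgeR), or 2.82-fold.

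MICA, the more abundant MIC gene, was 44.2, 40.4 and 43.2 CPM in shCTRL and 68.2, 76.1 and 64.9 CPM in shCCN3 libraries. The groups were apart, and the log2FC of MICA was 0.71 (SE 0.08, 95% interval 0.54 to 0.88, adjusted p = 0.000109 from edgeR). MICA counts were 14.5 to 18.4 times those of MICB in shCTRL libraries and 8.38 to 10.9 times in shCCN3 libraries. The log2 ratio of MICA to MICB differed by -0.79 between the groups (exact permutation test, two-sided p = 0.1, adjusted 0.133 over the 4 pairs).

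ULBP3 went the other way. It was 14.9, 14.2 and 13.2 CPM in shCTRL and 10.2, 8.76 and 8.83 CPM in shCCN3 libraries, with every shCCN3 library below every shCTRL library. The log2FC of ULBP3 was -0.61 (SE 0.09, 95% interval -0.82 to -0.40, adjusted p = 0.00100 from edgeR). ULBP2 was 14.5, 13.3 and 12.2 CPM in shCTRL and 12.5, 12.4 and 12.0 CPM in shCCN3 libraries. These ranges overlapped, and the log2FC of ULBP2 was -0.12 (SE 0.09, 95% interval -0.31 to 0.08, adjusted p = 0.352 from edgeR). The ratio of ULBP2 to ULBP3 counts was 0.921 to 0.974 in shCTRL and 1.23 to 1.41 in shCCN3 libraries, a log2 difference of 0.50 (exact permutation test, two-sided p = 0.1, adjusted 0.133 over the 4 pairs).

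All 4 of these NKG2D ligand genes lie on chromosome 6, which was higher as a whole in shCCN3 cells, with a median log2FC of 0.34 over 891 genes. MICA lies from 31400711 to 31415315 and MICB from 31494918 to 31511124, in the MHC region. ULBP2 lies from 149942014 to 149949235 and ULBP3 from 150061053 to 150069121, toward the other end of the chromosome. The 24 tested genes nearest to MICA had a median of 0.41, those nearest to MICB 0.37, and those nearest to ULBP2 and to ULBP3 0.35. Relative to the neighbours' median, MICB was still 1.13 higher and MICA 0.30 higher, while ULBP2 was 0.47 lower and ULBP3 0.96 lower. Of the other genes tested on chromosome 6, 4.38% had a higher log2FC than MICB and 16.1% a higher one than MICA, while 16.1% had a lower one than ULBP2 and 5.28% a lower one than ULBP3. The part of the chromosome's shift in these values was not tested.

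Noncoding transcripts beside the MIC genes were also counted, and they were picked after their values were seen. MICB-DT, a transcript annotated next to MICB, had 0 counts in each shCTRL library and 57, 17 and 36 counts in the shCCN3 libraries. With 3 counts per library as the limit for shCTRL, the mean of 0.565 CPM was at least 12.5-fold higher. MICA-AS1 rose from 4.84 ± 0.109 to 8.37 ± 0.761 CPM, with a log2FC of 0.79 (adjusted p = 0.000384 from edgeR). Use of the strand in counting is not given in the sources used here, so reads of these transcripts and of their neighbours may not be fully separate.

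Sequence shared between relatives limits how far reads can be assigned. Of all 50-base words in the annotated transcripts of MICA, 1.89% also occur in transcripts of MICB, and 1.61% of those of MICB occur in MICA. For ULBP2, 32.2% of the words occur in other genes of the NKG2D ligand family, most of them in RAET1L. For ULBP3 the share was 12.4%, with RAET1K. When counts of MICA and MICB were summed, the log2FC was 0.77, and when those of ULBP2, RAET1G and RAET1L were summed it was -0.12. Exons of other genes covered at most 3.44% of a member's exonic bases, for PVR and CEACAM19.

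To see the NKG2D ligands as a set, CPM values were divided by the exonic length in kilobases (RPKM) for MICA, MICB, ULBP1, ULBP2, ULBP3, RAET1E, RAET1G and RAET1L. The 8 genes summed to 45.9 ± 2.26 RPKM in shCTRL and 53.9 ± 2.48 RPKM in shCCN3 cells. The ranges were 44.4 to 48.5 and 51.4 to 56.3 RPKM. All 8 lie on chromosome 6, where the median log2FC was 0.34, and the part of the chromosome's shift in this sum was not tested. The shares of single genes in this sum also differed between the lines. MICA made up 39.0 ± 1.65% of it in shCTRL and 54.1 ± 2.17% in shCCN3 cells, and MICB made up 2.03 ± 0.234% and 4.87 ± 0.480%. ULBP3 made up 31.2 ± 0.955% in shCTRL and 17.4 ± 1.65% in shCCN3 cells, and ULBP2 made up 21.5 ± 1.01% and 16.9 ± 0.553%. These shares depend on the exonic lengths used, 988 bases for ULBP3 and 1349 for ULBP2. In CPM, ULBP3 averaged 14.1 and ULBP2 13.3 in shCTRL cells. Other lengths were not tried for this sum.

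Of the 4 NKG2D ligand genes outside the members, ULBP1 alone was called, beside 33.4% of all genes tested. ULBP1 rose from 3.01 ± 0.476 to 5.31 ± 0.622 CPM, with a log2FC of 0.82 (adjusted p = 0.00287 from edgeR). That log2FC was 0.48 above the chromosome 6 median. RAET1E, RAET1G and RAET1L were below 2 CPM on average in both groups and did not pass, with adjusted p-values of 0.323, 0.218 and 0.187 from edgeR.

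The order of the members' levels per length also differed between the lines. In shCTRL cells the order was CD276 (40.0 ± 1.22 RPKM), NECTIN2 (26.0 ± 1.31), PVR (23.8 ± 0.281), CD47 (22.1 ± 0.435), MICA (17.9 ± 0.832), ULBP3 (14.3 ± 0.863), ULBP2 (9.88 ± 0.873), PDCD1LG2 (1.57 ± 0.0927), MICB (0.929 ± 0.0687) and CD274 (0.561 ± 0.0669 RPKM). The libraries of neighbours in this order did not overlap. With the longest transcript as the length in place of all exons, PVR and CD47 changed places.

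In shCCN3 cells CD276 (31.6 ± 1.35 RPKM), NECTIN2 (31.6 ± 2.53), MICA (29.2 ± 2.42) and PVR (28.8 ± 0.656 RPKM) formed a group in which neighbours overlapped. With the longest transcript as the length, NECTIN2 (48.0 ± 3.84 RPKM) and MICA (30.8 ± 2.55 RPKM) were apart, so that the group of 4 rests on the length used. CD47 followed at 18.1 ± 1.03 RPKM, apart from both its neighbours. ULBP3 (9.37 ± 0.811 RPKM) and ULBP2 (9.12 ± 0.182 RPKM) overlapped. MICB (2.62 ± 0.136 RPKM) stood above PDCD1LG2 (2.08 ± 0.132 RPKM), the reverse of their order in shCTRL cells, and CD274 remained last at 1.26 ± 0.126 RPKM.

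The genes around these ligands were described by lists, which were also chosen with earlier results of these data known. Over 10 lists with 84 genes, 69 genes were tested, of which 29 were higher and 10 were lower in shCCN3 cells, beside 16.2% higher and 17.3% lower over all genes. Of the genes named from these lists, IFNGR1, ULBP1, RAET1E, RAET1G, RAET1L, CD24, HLA-E, HLA-G, BTN2A2, BTN3A1, BTN3A2 and NT5E lie on chromosome 6. The median log2FC of that chromosome was 0.34. The list of signaling that leads to CD274 had the most genes tested and the most calls in 1 direction. The other inhibitory ligands, with 4 of 6 tested genes higher and 1 lower, had a median log2FC of 0.58. The other nectins and nectin-like molecules, with 2 of 3 higher and 1 lower, had one of 0.55. In the CD274 signaling list, 9 of 13 genes tested were higher and 0 were lower, with a median log2FC of 0.42. IFNGR1, a chain of the interferon-gamma receptor, rose from 24.7 ± 0.863 to 56.3 ± 1.33 CPM, and IRF9, a subunit of the interferon-activated complex that binds ISREs, rose from 25.4 ± 1.67 to 36.8 ± 1.03 CPM. The log2FC was 1.19 for IFNGR1, 0.54 for IRF9 and 0.52 for the kinase JAK2 (adjusted p = 1.59e-06, 0.000436 and 0.0265 from edgeR). The call of JAK2 was lost in 4 of the 6 fits that left out a library, of which the one without shCTRL replicate 2 gave the highest adjusted p, 0.10. NFKB1 and RELA, 2 more of the 9 and named after their values were seen, lost their calls under 5 and 6 of 13 alternatives. IRF1, the interferon-gamma-induced factor that binds the CD274 promoter, went from 59.0 ± 0.904 to 62.5 ± 2.07 CPM without passing (log2FC 0.08, adjusted p = 0.300 from edgeR).

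None of the 6 regulators of DNA damage and heat shock responses (ATM, ATR, CHEK1, CHEK2, HSF1 and E2F1) passed in edgeR's test, where 33.4% of all genes passed. At an unadjusted p under 0.05 the count was also 0, and so it was with DESeq2 and with limma-voom. With a library left out, ATR passed without shCTRL replicate 3 (adjusted p = 0.0343) and E2F1 without shCCN3 replicate 2 (adjusted p = 0.0331, both edgeR), both with lower levels in shCCN3 cells. These values are mRNA levels, and the activity of the regulators was not measured. Of 11 genes that handle or shed these ligands, 4 were higher and 1 was lower (16.2% and 17.3% of all genes). SPOP, an adaptor of a ubiquitin ligase that targets PD-L1, rose from 37.8 ± 1.94 to 52.0 ± 0.0708 CPM (log2FC 0.46, adjusted p = 0.000484 from edgeR). QPCTL, the enzyme that modifies CD47 for SIRPα binding, had a log2FC of 0.45, CMTM4, a PD-L1 stabilizer, one of 0.36, and MMP14, a protease that can shed MICA, one of -0.28 (adjusted p = 0.00155, 0.00659 and 0.00551 from edgeR). The fifth call, COPS5, a subunit of the COP9 signalosome, had a log2FC of 0.22, lost its call under 5 of 13 alternatives and was named after its values were seen. CMTM6, the main stabilizer of PD-L1, went from 158 ± 9.85 to 148 ± 11.6 CPM without passing (adjusted p = 0.401 from edgeR).

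Relatives of the members moved in both directions. NECTIN1, an adhesion molecule of the nectin family, fell from 46.8 ± 0.995 to 21.1 ± 1.59 CPM, while CADM1, a nectin-like ligand of the receptor CRTAM, rose from 175 ± 7.57 to 300 ± 23.3 CPM. NECTIN3 was higher with a log2FC of 0.55 (adjusted p = 4.98e-06, 4.30e-05 and 0.00411 for NECTIN1, CADM1 and NECTIN3 from edgeR). Of 9 tested B7 and butyrophilin genes, 4 were higher and 1 was lower (16.2% and 17.3% of all genes). VSIR, which encodes the inhibitory B7 relative VISTA, rose from 0.759 ± 0.166 to 2.06 ± 0.412 CPM, with a log2FC of 1.44 (adjusted p = 0.00144 from edgeR). The butyrophilins BTN2A2, BTN3A1 and BTN3A2 had log2FC values of 0.52, 0.38 and 0.20 (adjusted p = 0.00292, 0.00332 and 0.0483 from edgeR), and that of BTN3A2 did not pass under 8 of 13 alternatives. BTN3A1 was 0.04 above the chromosome 6 median and BTN3A2 0.14 below it. The gene that was lower, ICOSLG, fell from 0.350 ± 0.0760 to 0.0253 ± 0.0237 CPM and is named here after its values were seen, since it lies below 1 CPM.

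Of 6 tested inhibitory ligands outside the B7 and nectin families, 4 were higher and 1 was lower (16.2% and 17.3% of all genes). HLA-E, whose protein engages the NK cell receptor NKG2A, rose from 154 ± 4.99 to 221 ± 12.9 CPM, and CD24, a ligand of Siglec-10 on macrophages, rose from 89.2 ± 4.05 to 158 ± 4.16 CPM (adjusted p = 0.000217 and 1.00e-05 from edgeR). Their log2FC values were 0.19 and 0.49 above the chromosome 6 median. LGALS9, which encodes galectin-9, rose with a log2FC of 0.64 (adjusted p = 0.0129 from edgeR), a call lost without shCTRL replicate 2 (0.0520) or shCCN3 replicate 1 (0.0539). CEACAM1, named after its values were seen, was higher but averaged below 1 CPM in both groups. TNFRSF14, which encodes HVEM, the ligand of BTLA, fell from 13.8 ± 2.42 to 2.90 ± 0.268 CPM, with a log2FC of -2.26 (adjusted p = 5.11e-06 from edgeR).

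**Figure D3:**
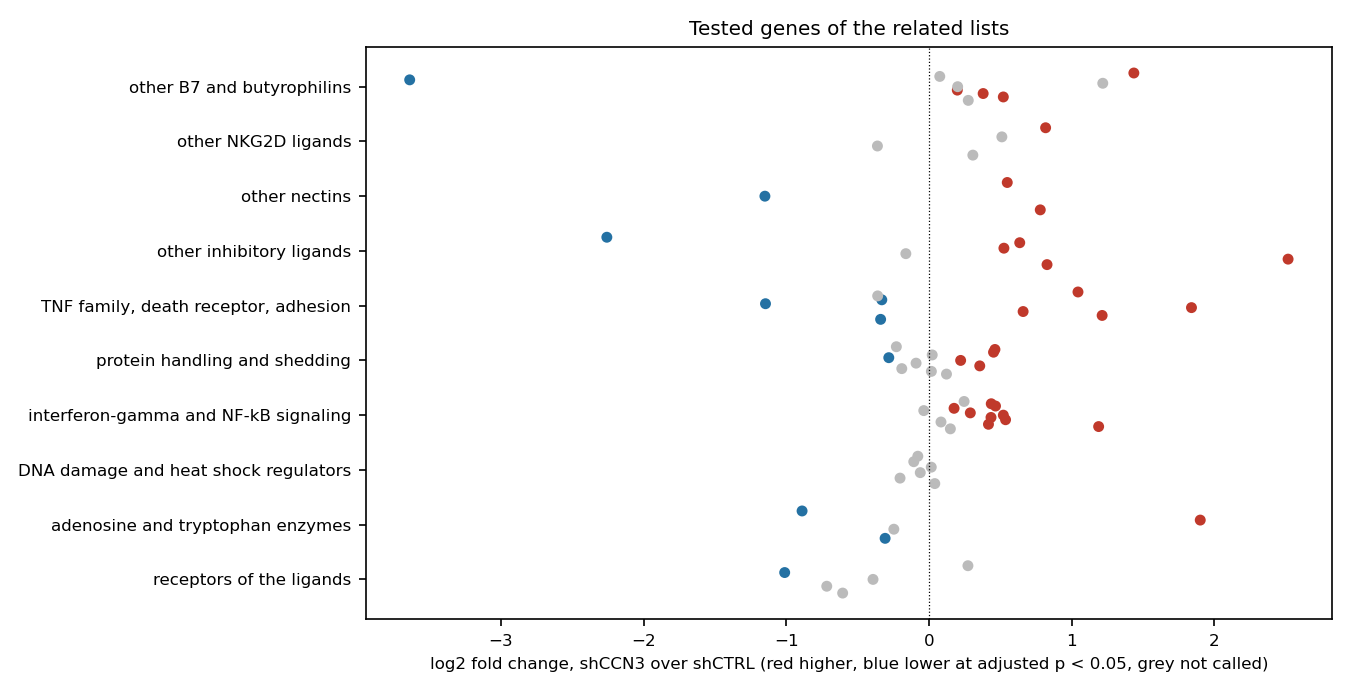
Each point is a tested gene of 1 of the 10 related lists, placed by its log2FC (shCCN3 over shCTRL), in red or blue where it was higher or lower at an adjusted p under 0.05 from edgeR and in grey otherwise. The interferon-gamma and NF-kB signaling row has 9 red and 0 blue points, and the row of DNA damage and heat shock regulators has grey points only.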

How the data were processed

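RNA-seq of 3 shCTRL and 3 shCCN3 samples was analysed from the raw read counts per gene that the authors deposited, without normalization, from stranded poly(A) libraries. The submitters' processing notes name bcl2fastq 2.20.0, Trimmomatic, HISAT2 2.1.0, StringTie 2.1.3d, DESeq2 and the build GRCh38. The annotation is not given in the sources used here. Libraries were assigned by column names and labels.

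From these counts, edgeR 4.0.16 (R 4.3.3) gave TMM-scaled CPM, a filter on low counts by group and log2 fold changes (log2FC), tested with its quasi-likelihood test and no block. Standard errors are the log2 fold change over the root of the F statistic. RPKM used exons of GENCODE release 29. Positions and promoters are from RefSeq on GRCh38.p14. The members and gene lists were chosen with earlier results of these data known. Beside the members, up to 4 genes per list were named, those that changed most at an adjusted p below 0.05 while averaging at least 1 CPM, and also CCN3, IRF1, JAK2, CMTM6, HLA-E, ULBP1, RAET1G and RAET1L. A gene that this rule names is not reported here. No 2 libraries of a group were as close as counting noise alone allows (chi-square per degree of freedom 7.13 to 46.0).

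Alternatives were other size factors, other filters, DESeq2 1.42.0, limma-voom with limma 3.58.1, a replicate block, summed copies and each library left out. The fits were first tested on simulated data with 200 changed genes among 17110. There edgeR recovered 140 of them with 16 false calls, DESeq2 145 with 32 and limma-voom 138 with 17. Of 67 changes of 1.5-fold, edgeR recovered 32. In the real data 33.4% of all genes passed, a far larger share than was changed in the simulation. The numbers recovered and falsely called therefore may not carry over.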

Additional observations from a re-analysis of the deposited data

How the results depend on the processing

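Of the 10 members, 9 passed an adjusted p of 0.05 in edgeR's test, and 7 to 9 passed under the 13 alternatives, the fewest without shCTRL replicate 2. CD274, CD276, CD47, PVR, MICA, MICB and ULBP3 passed under each of these alternatives, ULBP2 under none, NECTIN2 under 11 and PDCD1LG2 under 8. The counts of all genes lay between 4181 and 7229, beside 5825. The deviations of same-numbered samples correlated at 0.0891, -0.0256 and -0.0657, so the numbers were not taken to pair the samples. With a replicate block, 8 members and 4887 genes passed, and PDCD1LG2 had an adjusted p of 0.0504, while no other member's call changed. The sign of the difference in the NECTIN2 to PVR ratio changed when shCTRL replicate 1 or shCCN3 replicate 2 was left out, with a range of -0.0610 to 0.0452 on the log2 scale over the 6 libraries left out. The other 3 ratios kept their sign, at 0.73 to 0.81 for CD274 to PDCD1LG2, -0.89 to -0.70 for MICA to MICB and 0.45 to 0.56 for ULBP2 to ULBP3. Total counts in place of TMM factors, an alternative chosen after seeing the data, left 9 members without overlap. CD274, with 133 to 380 counts per library, and MICB, with 165 to 502, rest on fewer reads than CD276, with 10051 to 14965.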

Other observations

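Other genes by which these cells could engage lymphocytes also differed between the lines. ICAM1, the adhesion ligand of the integrin LFA-1, rose from 13.9 ± 0.127 to 49.8 ± 0.675 CPM (mean ± SD, n = 3), with a log2FC of 1.84 (adjusted p = 1.13e-07 from edgeR). The costimulatory ligands CD70 and TNFSF9 (4-1BBL) had log2FC values of 1.21 and 1.04, and TNFRSF10A, a death receptor for TRAIL, one of -1.15 (adjusted p = 2.27e-05, 5.90e-05 and 7.59e-05 from edgeR). In this list of 8 tested genes, 4 were higher and 3 were lower (16.2% and 17.3% of all genes). IDO1, the enzyme that degrades tryptophan, rose from 2.25 ± 0.195 to 8.42 ± 0.529 CPM, with a log2FC of 1.90. NT5E (CD73), which makes adenosine and lies on chromosome 6, fell from 205 ± 18.8 to 111 ± 8.94 CPM, and the adenosine receptor gene ADORA2B had a log2FC of -0.31 (adjusted p = 3.94e-06, 5.78e-05 and 0.00515 for IDO1, NT5E and ADORA2B from edgeR).

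HLA-G, named after its values were seen, had 914 counts in shCTRL replicate 3 and 861 counts in shCCN3 replicate 2, and 0 counts in each of the other 4 libraries. HLA class I genes share long stretches of sequence, and how reads were divided among them is not given in the sources used here, so these counts are uncertain as levels of HLA-G. The effect on the counts of HLA-E was not tested. HLA-G did not pass the filter on low counts.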
